A study of Mus musculus with 6 samples.

Results

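Venous endothelial cells line the veins and venules that drain the lung. They were read here from single-cell RNA sequencing of mouse lung, in 3 libraries from lungs infiltrated by acute myeloid leukaemia of genotype Trp53 R172H/Δ (AML 1, 2 and 3) and 3 libraries from normal lungs (Control 1, 2 and 3). All lungs were digested with Liberase and DNaseI and sorted for non-haematopoietic cells, and in the AML libraries alone sorted GFP+ leukaemia cells were then mixed in, as 20% of a suspension with 80% niche cells. The strain, age and sex of the mice, and how many mice made a library, are not given in the sources used here. Whether the 3 libraries of a group stand for different animals is also not given, and a p-value here therefore reflects the spread among the libraries at hand, part of which can be technical.

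The cells were chosen by a rule on raw unique molecular identifiers (UMIs). A cell had at least 500 genes, at most 15% mitochondrial UMIs and at least 2 UMIs summed over the endothelial genes Cdh5, Pecam1 and Cldn5. It had at least 1 UMI of Slc6a2 and at least 3 UMIs summed over Slc6a2, Vwf and Prss23. It had none of the arterial genes Gja5 and Dkk2, the aerocyte genes Ednrb and Fibin, the leukocyte gene Ptprc or the epithelial gene Epcam, at most 2 UMIs of the platelet genes Pf4 and Ppbp, and at most 1 UMI of the leukaemia genes Trap1a and Trnp1. The rule found 1048 cells among 28516 barcodes, 24640 of which passed the gene and mitochondrial limits and 16598 of which were endothelial. AML 1, 2 and 3 gave 244, 100 and 289 of these cells (633 in all), and Control 1, 2 and 3 gave 95, 162 and 158 (415 in all).

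In the lung, veins carry oxygenated blood from the capillaries to the left heart. Venous identity is held by the nuclear receptor Nr2f2 (COUP-TFII), which keeps Notch signalling low, and veins carry the receptor Ephb4 for the arterial ligand ephrin-B2. Venules are the usual place where leukocytes leave the blood, through P-selectin (Selp), Vcam1 and Icam1, and their cells store von Willebrand factor in Weibel-Palade bodies. Slc6a2 is the noradrenaline transporter, which in lung endothelium clears noradrenaline from the blood, and Prss23 is a secreted serine protease.

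By their markers the cells fitted the label. The gene Amigo2, a cell adhesion protein that the rule did not use, had 608, 290.3 and 354 CPM (UMIs scaled to a common total) in AML 1, 2 and 3 and 313, 364 and 328 CPM in Control 1, 2 and 3. The libraries overlapped. Of the rule genes, Slc6a2 had 2669, 2096 and 2394 CPM in the AML libraries and 1325, 1922 and 1255 CPM in the Controls, Vwf had 2588, 2349.8 and 2125 CPM against 2483, 2604 and 1773 CPM, and Prss23 had 2449, 2163 and 2437 CPM against 1762, 1844 and 2149 CPM. These values chose the cells and are given as a description. Prox1, the defining factor of lymphatic endothelium, had 1 UMI in all 1048 cells, and the lymphatic genes Nts, Reln and Thy1 had none. Of the 9 lymphatic markers, 6 had a UMI. The list summed to 3497 to 7285 CPM in the AML libraries and 2843 to 3666.5 CPM in the Controls, led by Lyve1. The threshold of 3 UMIs had few cells on it: 28 cells had exactly 3, and 63 cells with Slc6a2 had fewer. Summed over those groups, Amigo2 was at 58.4 CPM just inside and 37.2 CPM just outside, against 387 CPM over all the venous cells, and Nr2f2 was at 140 and 46.5 CPM, against 419 CPM.

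Free RNA in a droplet can put single UMIs into cells that do not express a gene. Among 1233 epithelial cells, which should lack Slc6a2, 2 cells (0.162%) had a UMI of it, against 1330 of 16598 endothelial cells (8.01%), although epithelial cells were deeper (medians of 11715.5 to 27910 UMIs per library, against 3011 to 8113). No epithelial cell met the Slc6a2 and 3-UMI minimum, so that at this number of cells a share of up to 0.243% remains possible, counting error alone considered. The epithelial cells were chosen as having Epcam and no UMI of Cdh5, Pecam1 or Cldn5. This choice left out droplets that had taken up endothelial RNA of those genes. The epithelial shares can therefore be too low, and they do not bound the free RNA.

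The libraries held 39919902, 45953347 and 46018541 UMIs (AML 1, 2 and 3) and 19060359, 26789176 and 22687245 UMIs (Control 1, 2 and 3). The venous cells of AML libraries were shallower, with medians of 4199.5, 5393 and 4032 UMIs per cell, against 8141, 7108.5 and 5960 in the Controls. The summed venous UMIs were 1178651, 551117 and 1274696 in the AML libraries and 976328, 1196784 and 1120746 in the Controls. Each pair of libraries of a group differed beyond counting noise (chi-square divided by its degrees of freedom, 3.47 to 8.86). At most 24 barcodes were shared between 2 libraries, and at most 1 among venous cells. UMIs of other cell types were present: summed epithelial markers, all 15 of which had a UMI, ranged over 454 to 520 CPM in the AML libraries and 226 to 5629 CPM in the Controls, led by the surfactant gene Sftpc (205, 165 and 175 CPM against 4515, 95.3 and 3118 CPM). Myeloid markers summed to 45.5 to 83.5 CPM against 32.6 to 520 CPM, led by Lyz2, with Adgre1, C1qc, Elane and Mpo at 0. Lymphoid markers stayed at 1.81 CPM or less against 12.5 CPM or less, with 8 of 14 at 0, and mural markers ranged over 136 to 475 CPM against 170 to 279 CPM. Haemoglobin Hbb-bs was at 3.39, 0 and 0 CPM in the AML libraries and 310.4, 9.19 and 859 CPM in the Controls. The 17 leukaemia and erythroid markers outside the rule summed to 741 to 852 CPM in the AML libraries, against 684 to 2365 CPM in the Controls, led by Gata2, which endothelial cells also express. Trap1a and Trnp1 were capped by the rule.

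Set beside 3 other endothelial classes of the same libraries, the venous cells carried a set of genes that those classes nearly lacked. The classes were general capillary cells (4199 cells with Gpihbp1 and no venous rule gene), arterial cells (268 cells with Gja5 or Dkk2) and aerocytes (2152 cells with Ednrb or Fibin). Because the rule split the cells by expression, the levels are descriptions with no test, each the mean of 6 libraries ± SD. Nr2f2 was at 416 ± 78.4 CPM in venous cells, against 15.8 ± 7.29 in general capillary cells, 11.03 ± 16.1 in arterial cells and 28.3 ± 15.2 in aerocytes. Ephb4 was less set apart, at 223 ± 24.3 CPM in venous cells, 135 ± 28.5 in general capillary cells, 90.2 ± 31.5 in arterial cells and 75.0 ± 9.74 in aerocytes. Its venous level was above that of each other class in 6 of 6 libraries, as it was for Nr2f2 and Amigo2.

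Other venous genes with known roles had similar patterns. Bst1, a surface enzyme that uses NAD, was at 256 ± 58.2 CPM in venous cells, against 1.28 ± 1.21 CPM in general capillary cells, 11.2 ± 8.37 CPM in arterial cells and 1.12 ± 1.13 CPM in aerocytes. Nrp2, a co-receptor of VEGF-C and semaphorins, was at 100.2 ± 16.9 CPM, with no UMI in arterial cells of 5 libraries. Arterial cells were few, at 19 to 66 per library, which limits low levels there. Vegfc, the growth factor of lymphatic vessels, was at 357 ± 62.6 CPM, against 43.4 ± 23.5 CPM in general capillary cells, 52.1 ± 18.9 CPM in arterial cells and 23.6 ± 5.81 CPM in aerocytes. Ptgis, which makes the vasodilator prostacyclin, was at 186 ± 39.1 CPM, against 46.7 ± 36.9 CPM in arterial cells, the highest of the other classes. Lbp, a lipopolysaccharide-binding protein, was at 375 ± 77.8 CPM, against 34.6 ± 9.97 CPM or less in the other classes.

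Adhesion genes were shared with arteries. Vcam1 was at 309 ± 178 CPM in venous cells and 214 ± 113 CPM in arterial cells, and was higher in venous cells in only 3 of 6 libraries, with 2.94 ± 2.0 CPM in general capillary cells. Selp, also a leukocyte adhesion gene, had 41.6, 514 and 65.1 CPM in venous cells of AML 1, 2 and 3 and 66.6, 61.0 and 23.2 CPM in those of Control 1, 2 and 3, so that AML 2 alone stood far above arterial cells (57.0 ± 29.3 CPM). Cpe, a prohormone-processing enzyme, was at 233 ± 75.8 CPM in venous cells and 182 ± 131 CPM in arterial cells. Of the 12 venous marker genes outside the rule, 10 were above general capillary cells, 7 above arterial cells and 11 above aerocytes in 6 of 6 libraries. Tm4sf1, listed as a venous marker, was lower in venous cells (1075 ± 213 CPM) than in arterial cells (2677 ± 847 CPM) in every library, and Moxd1 had 8 UMIs in all. Among 3456 genes at 50 CPM or more in venous cells, 147 (4.25%) were above all 3 other classes in 6 of 6 libraries.

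None of 13 arterial markers outside the rule was above arterial cells in 6 of 6 libraries, and 11 were not above them in any, while 2 were above general capillary cells and 3 above aerocytes in 6 of 6. Of 11 general capillary markers outside the class definition, none was above general capillary cells in 6 of 6 libraries and 8 were not above them in any, while 3 were above arterial cells and 4 above aerocytes in 6 of 6. Summed in venous cells, the arterial list came to 501 to 1442 CPM in the AML libraries and 1311 to 1491 CPM in the Controls, led by Mgp, and all 12 general capillary markers to 9091 to 10364 CPM and 8441 to 10065 CPM, led by Ptprb. Efnb2, which encodes the arterial ligand ephrin-B2, was at 112 ± 39.1 CPM in venous cells, against 644 ± 250 CPM in general capillary cells and 732 ± 322 CPM in arterial cells. The gap junction gene Gja4 was at 52.9 ± 31.9 CPM, against 260 ± 124 CPM in arterial cells. Kit was at 134 ± 45.7 CPM, against 472 ± 183 CPM in general capillary cells, and Car4, a carbonic anhydrase of aerocytes, was at 39.8 ± 23.8 CPM, against 2052 ± 510.1 CPM in aerocytes. Lyve1, a hyaluronan receptor that is also used as a lymphatic marker, was at 4024 ± 1622 CPM in venous cells and 4302 ± 2810.3 CPM in arterial cells.

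**Figure D1:**
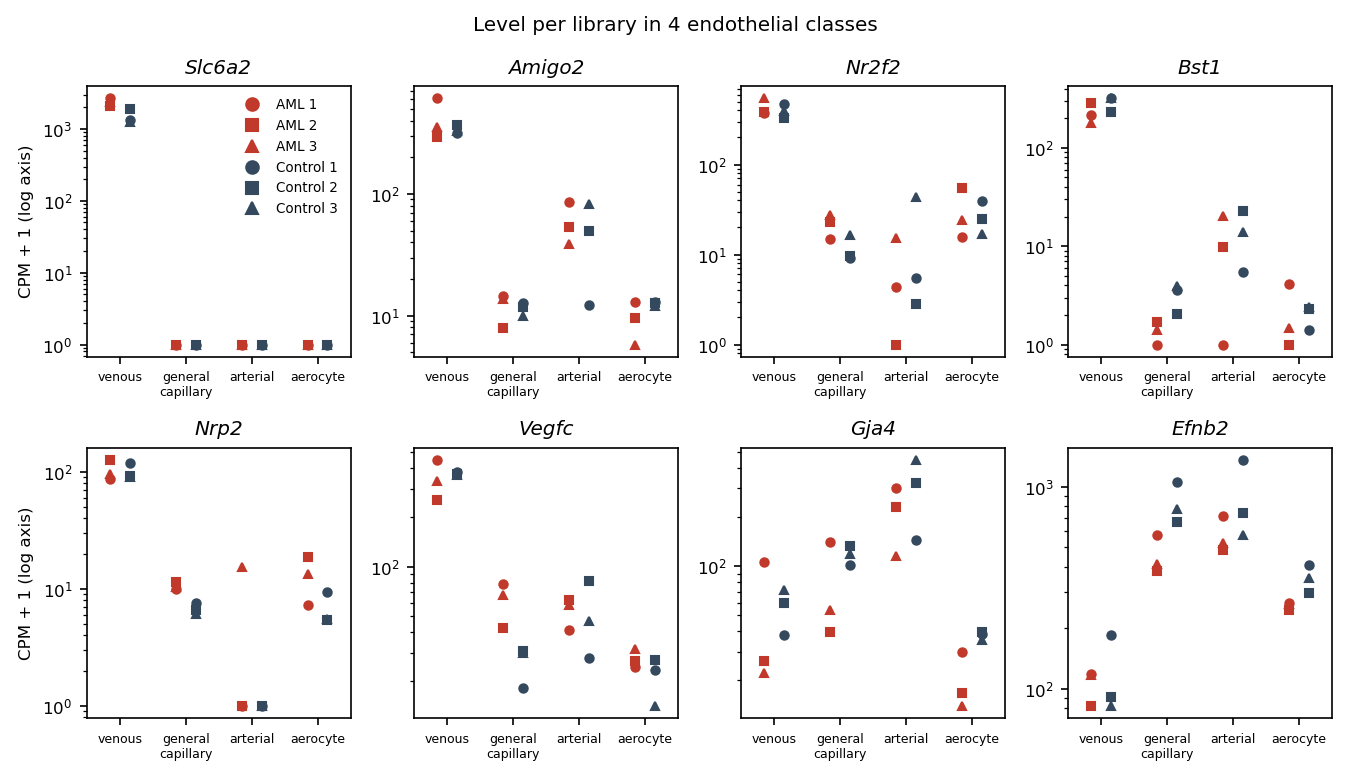
Levels of 8 genes in venous, general capillary, arterial and aerocyte cells (CPM + 1 on a log axis), 1 point per library, with AML libraries in red to the left of Control libraries in blue. Slc6a2 was part of the rule and is 0 in the other classes by their definition; Amigo2, Nr2f2, Bst1, Nrp2 and Vegfc lie higher in venous cells than in each other class in 6 of 6 libraries, while Gja4 and Efnb2 lie lower there than in arterial cells.

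In venous cells of AML-infiltrated lungs, 7 of 17 tested interferon-gamma genes and 3 of 26 heat shock chaperone genes fell, as did Pdgfb, Ltbp4 and Ptgs2, while Ly6c1, Ramp3, Tiparp, Cirbp and Ucp2 rose. UMIs were summed per library and compared, AML minus Control, with edgeR's quasi-likelihood test after TMM scaling, and p-values were adjusted by Benjamini-Hochberg over 8615 genes. At an adjusted p of 0.05, 65 genes (0.754% of those tested) passed, 23 higher (0.267%) and 42 lower (0.488%), while 1026 genes had an unadjusted p below 0.05. All 65 had AML and Control values that did not overlap, which held for 18.5% of all genes tested. The median log2 change of all genes was 0.0074. The calls depended on single libraries: with AML 3 or Control 1 left out edgeR made 0 calls (691 and 812 genes at an unadjusted p below 0.05), with Control 3 left out 4 (Ptgs2, Pcdh7, Hsph1 and Cirbp), and with AML 1 left out 313. DESeq2 called 115 genes, 53 higher and 62 lower. Values below are CPM after TMM scaling, and each adjusted p is from edgeR.

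The interferon-gamma list holds guanylate-binding proteins (Gbp genes), immunity-related GTPases (Igtp, Irgm1, Irgm2, Tgtp2 and Iigp1) and regulators. These GTPases are induced by interferon-gamma and act on the membranes around intracellular pathogens. Of 22 genes listed, 17 passed the filter on low counts. Of those 17, 7 fell (background 0.488%), and none rose. All 17 changes lay below 0, with a median of -1.64 on the log2 scale, against 0.0074 over all genes, 14 had an unadjusted p below 0.05, and 12 had groups that did not overlap.

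Gbp4 (ENSMUSG00000079363; mm10 chromosome 5, 105115767 to 105139586, minus strand) had 40.2, 11.6 and 15.3 CPM in AML 1, 2 and 3, against 120.2, 82.1 and 103 CPM in Control 1, 2 and 3. Every AML library lay below every Control library, AML 1 being the highest of its group. It fell 4.25-fold (log2 change -2.09 ± 0.35 SE, edgeR adjusted p = 0.0166). Igtp, which encodes the GTPase Irgm3, had 34.4, 9.69 and 14.5 CPM against 61.1, 111 and 71.6 CPM and fell 3.88-fold (-1.96 ± 0.37, adjusted p = 0.0294). Irgm2 had 46.9, 17.4 and 20.9 CPM against 72.9, 111 and 99.1 CPM and fell 3.17-fold (-1.66 ± 0.32, adjusted p = 0.0236). Among the AML libraries, AML 1 was again the highest for both. Gbp2 had 65.4, 23.2 and 32.2 CPM against 128, 121 and 118 CPM, a fall of 2.90-fold, and Gbp3, with 15.1, 11.6 and 4.02 CPM against 43.4, 43.6 and 34.9 CPM, fell 4.05-fold. Gbp9 and Tgtp2 also fell, by 1.64 and 2.45 on the log2 scale. Gbp4 and Gbp9 overlap on the genome, as do Igtp and Irgm2, and Tgtp2 has a near-identical copy in Tgtp1. Whether counting used the strand is not stated, so the reads of such pairs may be split between them. Iigp1 (log2 change -1.12, adjusted p = 0.602) and Gbp6 (-2.79, adjusted p = 0.053) did not pass.

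The type I interferon list gave 21 tested genes of 30, all with changes below 0 (median -0.91), of which 17 had an unadjusted p below 0.05 (1026 of 8615 over all genes) and 2 passed as lower (background 0.488%). Ifi44, an interferon-induced protein (chromosome 3, 151730922 to 151749960, minus strand), had 13.4, 1.94 and 4.83 CPM in the AML libraries against 34.5, 46.2 and 48.6 CPM in the Controls and fell 5.6-fold (log2 change -2.49 ± 0.40 SE, edgeR adjusted p = 0.0123). Stat2, a transcription factor that carries the type I interferon signal to the nucleus, had 20.9, 21.3 and 16.1 CPM against 36.5, 62.4 and 51.4 CPM, and fell 2.62-fold (adjusted p = 0.0328). In neither gene did the groups overlap. Isg15, a ubiquitin-like protein, had 40.2, 42.6 and 29.0 CPM against 39.4, 104 and 94.5 CPM, with Control 1 in the range of the AML libraries, and did not pass (adjusted p = 0.159).

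Calls in both interferon lists rested on the same libraries as the whole count. For the interferon-gamma list there were 16, 8 and 0 calls with AML 1, 2 or 3 left out and 0, 3 and 0 with Control 1, 2 or 3 left out, with the list's median between -1.35 and -2.28. For the type I list the counts were 7, 3 and 0, and 0, 1 and 0. DESeq2 called 9 and 2 genes of these lists. The summed epithelial and myeloid markers, in the ranges given above, were higher in Control 1 and 3 than in the AML libraries and Control 2, and their part in these falls was not tested.

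The proximal promoters of these genes often held the core letters of the interferon-stimulated response element, which interferon regulatory factors bind. RefSeq promoters (GRCm38.p6, 250 bases before to 50 after each start) were searched for GAAANNGAAA on both strands. Of the 10 tested genes of the interferon-gamma list with an entry, 8 held it (80%: Gbp2, Gbp3, Gbp5, Gbp7, Igtp, Irgm1, Irgm2 and Tgtp2), and of 16 type I genes 9 did. All promoters gave 1131 of 32851 (3.44%), and all genes with an entry gave 3.99%. A match is a description of letters, not of binding. Below are the 250 bases before the start for 4 genes that fell, 3 GTPase genes and Stat2, shown so that the element can be seen where it lies. They are plus-strand sequences, 5′ to 3′, with the matches in capitals (a match on the minus strand appears as its reverse complement). They lie at chr3:142620413-142620662 (Gbp2), chr3:142559794-142560043 (Gbp3), chr11:58214727-58214976 (Irgm2) and chr10:128270248-128270497 (Stat2).
Gbp2: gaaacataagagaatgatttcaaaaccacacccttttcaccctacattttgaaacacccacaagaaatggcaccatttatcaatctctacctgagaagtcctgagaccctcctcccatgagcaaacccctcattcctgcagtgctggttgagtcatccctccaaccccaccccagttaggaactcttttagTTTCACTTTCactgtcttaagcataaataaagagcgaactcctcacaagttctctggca
Gbp3: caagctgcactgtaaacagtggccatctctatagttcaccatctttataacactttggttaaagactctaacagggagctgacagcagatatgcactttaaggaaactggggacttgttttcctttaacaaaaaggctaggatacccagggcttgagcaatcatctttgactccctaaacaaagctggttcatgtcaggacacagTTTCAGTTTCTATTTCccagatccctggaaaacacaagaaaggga
Irgm2: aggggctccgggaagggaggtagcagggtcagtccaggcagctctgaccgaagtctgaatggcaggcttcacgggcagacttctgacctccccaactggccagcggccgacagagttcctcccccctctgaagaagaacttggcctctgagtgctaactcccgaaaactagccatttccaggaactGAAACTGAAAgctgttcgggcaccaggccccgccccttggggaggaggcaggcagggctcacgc
Stat2: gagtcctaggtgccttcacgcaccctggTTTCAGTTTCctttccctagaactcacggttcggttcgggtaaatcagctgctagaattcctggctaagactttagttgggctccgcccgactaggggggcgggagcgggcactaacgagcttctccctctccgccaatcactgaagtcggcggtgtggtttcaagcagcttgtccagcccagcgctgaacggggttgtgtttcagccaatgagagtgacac
The match of Gbp2 began 59 bases before the start, those of Gbp3, which overlap each other, 45 and 39 bases, that of Irgm2 64 bases and that of Stat2 222 bases. The 3 GTPase promoters thus held the element close to the start, and the Stat2 promoter farther upstream.

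Antigen presentation genes lay below 0 together, with no call. All 20 class I genes tested had changes below 0 (median -0.49). None passed in edgeR or DESeq2, and 6 had an unadjusted p below 0.05. The peptide transporter Tap1 had 36.0, 17.4 and 15.3 CPM in the AML libraries and 56.2, 50.5 and 44.1 CPM in the Controls (adjusted p = 0.143), while the heavy chain H2-K1, at 2025, 1341 and 906 CPM against 1582, 2033 and 1987 CPM, overlapped. All 7 class II genes tested of 10 were below 0 (median -0.68), none passed in either tool and 1 had an unadjusted p below 0.05. Ciita, the factor that switches on class II genes, had 10.1, 0 and 0 CPM against 19.7, 22.2 and 14.7 CPM (adjusted p = 0.269). The invariant chain gene Cd74 ranged over 38.6 to 465 CPM in the AML libraries and 254 to 553 CPM in the Controls.

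Cytosolic heat shock chaperones, which hold and refold proteins under stress, had 3 falling members. All 26 genes listed were tested, and 3 fell (background 0.488%) and none rose. The changes of 21 lay below 0 (median -0.56), 15 had an unadjusted p below 0.05, and DESeq2 called 5. Hspa1a, the inducible HSP70 (chromosome 17, 34969190 to 34972156, minus strand), had 18.4, 9.69 and 7.24 CPM in AML 1, 2 and 3 and 89.7, 40.2 and 48.6 CPM in Control 1, 2 and 3. No AML library reached the lowest Control, and the fall was 4.85-fold (log2 change -2.28 ± 0.39 SE, edgeR adjusted p = 0.0166). Its near-copy Hspa1b can share reads with it. Hsph1, the HSP110 co-chaperone, had 26.8, 40.7 and 22.5 CPM against 159.6, 78.7 and 77.1 CPM and fell 3.65-fold, with 72.7 CPM in haematopoietic cells of the AML libraries, above its venous level there. Dnaja1, an HSP40, had 388, 356 and 327 CPM against 758, 712 and 724 CPM (2.05-fold lower, adjusted p = 0.0365), with 511 CPM in haematopoietic cells. The constitutive Hspa8 did not pass (996, 1027 and 793 CPM against 1732, 1784 and 1781 CPM, adjusted p = 0.0888). Hspb1 lay the other way without passing, at 321, 1449 and 589 CPM against 333, 351 and 363 CPM. Hspa1a, Hsph1 and Dnaja1 were also lower in AML than in Control epithelial cells of the same libraries, given with no test. Epithelial Hspa1a was at 7.03, 5.55 and 6.82 CPM in AML 1, 2 and 3 and 41.9, 20.5 and 63.7 CPM in the Controls. Mean epithelial levels were 22.1 against 148 CPM for Hsph1 and 238 against 548 CPM for Dnaja1. The calls in this list numbered 7, 2 and 0 with AML 1, 2 or 3 left out and 0, 3 and 1 with Control 1, 2 or 3 left out. Chaperones of the endoplasmic reticulum had 20 of 22 changes below 0 (median -0.35), with 0 calls in edgeR and DESeq2 and 8 unadjusted p below 0.05.

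The letters GAANNTTCNNGAA, the core of the heat shock element, stood in the promoters of 4 of 20 chaperone genes with an entry (Chordc1, Hspd1, Hspe1 and Hsph1; 20%), against 0.662% of all genes with an entry. Of these 4 only Hsph1 passed the test.

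Of 4 cold-inducible RNA-binding protein genes, 2 rose (background 0.267%) and the other 2 did not pass. Cirbp, which binds transcripts after mild cooling and other stresses (chromosome 10, 80165985 to 80172786), had 88.8, 182 and 150 CPM in the AML libraries, against 35.5, 37.6 and 47.7 CPM in the Controls. The groups did not overlap, and Cirbp rose 3.42-fold (log2 change 1.78 ± 0.27 SE, edgeR adjusted p = 0.0123). Rbm3, its close relative, had 352, 951 and 636 CPM against 215, 273 and 232 CPM and rose 2.68-fold (adjusted p = 0.0384), with 1380 CPM in haematopoietic cells. All 4 tested genes of the list lay above 0 (median 1.05). Without AML 3 or Control 1 none passed, and without AML 2, Control 2 or Control 3 a single one did. In epithelial cells of the same libraries Cirbp was at a mean of 173 CPM in AML and 50.2 CPM in Control. Rbm3 was at 503 and 172 CPM there, both genes being given with no test.

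Of 18 vasoactive genes tested, 1 rose (background 0.267%) and 1 fell (0.488%). Ramp3, which turns the calcitonin receptor-like receptor into a receptor of adrenomedullin, a vasodilator peptide (chromosome 11, 6658521 to 6677475), had 156, 254 and 138 CPM in the AML libraries, against 34.5, 66.7 and 56.0 CPM in the Controls, and rose 3.41-fold (log2 change 1.77 ± 0.29 SE, edgeR adjusted p = 0.0123). The receptor itself, Calcrl, overlapped at 2992, 1513 and 2331 CPM against 2026, 2356 and 2352 CPM. Ptgs2 (COX-2), which makes the precursor of prostaglandins (chromosome 1, 150100031 to 150108227), had 27.7, 25.2 and 34.6 CPM against 143, 83.0 and 66.1 CPM and fell 3.26-fold (-1.71 ± 0.30, adjusted p = 0.0166). The groups were apart for both genes. Ptgs2 did not pass with equal cells per library (adjusted p = 0.305), with at least 2 Slc6a2 UMIs per cell (log2 change -1.11, adjusted p = 0.06355) or with the rule on thinned cells (-1.03, adjusted p = 0.0728). Npr1, the receptor of atrial natriuretic peptide, had 87.1, 38.7 and 53.9 CPM against 152.7, 138 and 118 CPM and missed the threshold (adjusted p = 0.0586), as did endothelin-1 (Edn1; 258, 77.5 and 180.3 CPM against 266, 310.5 and 303 CPM; adjusted p = 0.382). The noradrenaline transporter Slc6a2 gets no test, being a rule gene.

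Growth factor and matrix genes were called in both directions. Pdgfb, which recruits pericytes to vessels (chromosome 15, 79995874 to 80014977, minus strand), had 59.5, 27.1 and 41.0 CPM in the AML libraries and 139, 121 and 137 CPM in the Controls, and fell 2.99-fold (log2 change -1.58 ± 0.25 SE, edgeR adjusted p = 0.0123). Ltbp4, which holds latent TGF-beta in the matrix, had 109.8, 40.7 and 101 CPM against 314, 219.8 and 285 CPM and fell 3.15-fold (adjusted p = 0.018). Tgfb2, a ligand of that family, had 31.0, 25.2 and 33.0 CPM against 67.0, 64.1 and 66.1 CPM, a fall of 2.16-fold (adjusted p = 0.0365). In all 3 genes each Control lay above each AML library. Fbln5, a protein of elastic fibres, fell 2.76-fold to 84.6, 50.4 and 49.1 CPM in the AML libraries, against 145, 179 and 193 CPM in the Controls. Lfng, which adds sugars to Notch receptors, fell 2.43-fold (53.6, 27.1 and 44.3 CPM against 104, 105 and 106 CPM, adjusted p = 0.0225). Mmp15, a membrane metalloprotease, had 8.38, 5.81 and 2.41 CPM against 35.5, 20.5 and 42.2 CPM and fell by 2.56 on the log2 scale. In epithelial cells of the same libraries Mmp15 was at a mean of 123 CPM in AML and 167 CPM in Control. The part of epithelial RNA in its fall was not tested. Lamc3, a laminin chain, had 10.9, 29.1 and 22.5 CPM against 1.97, 5.99 and 0.918 CPM and rose 6.26-fold, and Sparcl1, a matrix glycoprotein, had 71.2, 65.9 and 102 CPM against 34.5, 11.1 and 31.2 CPM and rose 3.18-fold. Of 23 BMP and TGF-beta genes tested, 2 fell and none rose, of 16 basement membrane and collagen genes 1 rose, and of 15 matrix proteases and inhibitors 1 fell, against backgrounds of 0.488% lower and 0.267% higher. Their changes lay on both sides of 0, with 11, 11 and 7 below it and list medians of 0.0072, -0.34 and 0.35. Ltbp4 did not pass without the cells that had 3 or more Selp UMIs (adjusted p = 0.0663).

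Genes that rose outside these groups had a range of roles. Tiparp, an ADP-ribosyltransferase that is a target of the aryl hydrocarbon receptor (chromosome 3, 65528410 to 65555518), had 93.9, 138 and 237 CPM in the AML libraries and 41.4, 35.9 and 40.4 CPM in the Controls and rose 3.99-fold (log2 change 1.998 ± 0.304 SE, edgeR adjusted p = 0.0123). The GPI-anchored surface protein Ly6c1 (chromosome 15, 75044018 to 75048830, minus strand) had 3158, 5360.2 and 3937 CPM against 898, 1659 and 859 CPM and rose 3.64-fold (1.87 ± 0.31, adjusted p = 0.0123), its reads being open to sharing with Ly6c2. The groups did not overlap in either gene. Slc6a6, the taurine transporter, had 127, 73.6 and 98.2 CPM against 33.5, 23.1 and 29.4 CPM and rose 3.54-fold. Ucp2, a mitochondrial carrier, had 1130.4, 2075 and 1823 CPM against 504, 798 and 429.5 CPM and rose 2.90-fold. Itgb3, the beta chain of the vitronectin receptor, had 74.6, 201 and 106 CPM against 48.3, 39.3 and 34.0 CPM and rose 3.05-fold. Both Ucp2 and Itgb3 were highest in AML 2. The kinase gene Tnik rose 3.39-fold, the splicing factor gene Celf2 3.26-fold, and Pthlh, which encodes a parathyroid hormone-like peptide, 2.96-fold. Cd59a, an inhibitor of complement, had 37.7, 75.6 and 106 CPM against 27.6, 23.9 and 25.7 CPM and rose 2.83-fold (adjusted p = 0.0474), with 131 CPM in haematopoietic cells. Of the 23 genes that rose, 3 were lower in venous cells than in the AML libraries' own haematopoietic cells, and the part of the added leukaemia cells' RNA in those was not tested. Ly6c1 and Cd59a were the 2 calls (background 0.267%) among 6 Ly6 genes tested, all with changes above 0 (median 1.04). The calls of this list numbered 4, 1 and 0 with AML 1, 2 or 3 left out and 0, 2 and 0 with Control 1, 2 or 3 left out.

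Among the other genes that fell, Palld, an actin-bundling protein, had 14.2, 34.9 and 10.5 CPM in the AML libraries and 94.6, 55.6 and 75.3 CPM in the Controls, a fall of 4.27-fold. Sept4, a septin, fell 3.26-fold (21.8, 15.5 and 21.7 CPM against 56.2, 64.1 and 78.9 CPM), and Pcdh7, a protocadherin, fell 3.32-fold, with 40.1 CPM in haematopoietic cells. Amotl2 and Ptpn14, which act in Hippo signalling, fell 2.29-fold and 2.55-fold. Stab1, a scavenger receptor, fell 2.50-fold to 27.7, 15.5 and 19.3 CPM, against 64.1, 40.2 and 58.7 CPM in the Controls. These 3 genes and Fbln5 were named after their values were seen. Fabp5, a fatty acid carrier, had 44.4, 15.5 and 40.2 CPM against 105, 79.5 and 174 CPM (3.36-fold lower), and the protease gene Ctsh had 68.7, 25.2 and 70.8 CPM against 169, 150.5 and 225 CPM (3.15-fold lower). Both are abundant in epithelial cells of the same libraries, Fabp5 at a mean of 806 CPM in AML and 736 CPM in Control epithelial cells, and Ctsh at 1608 and 998 CPM. Sftpc was higher in Control 1 and 3 than in the AML libraries and Control 2, and the part of epithelial RNA in these 2 genes was not tested. In haematopoietic cells Fabp5 was at 152 CPM. Of 17 lipid uptake and handling genes tested, 1 fell (background 0.488%) and none rose, with 9 changes below 0.

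**Figure D2:**
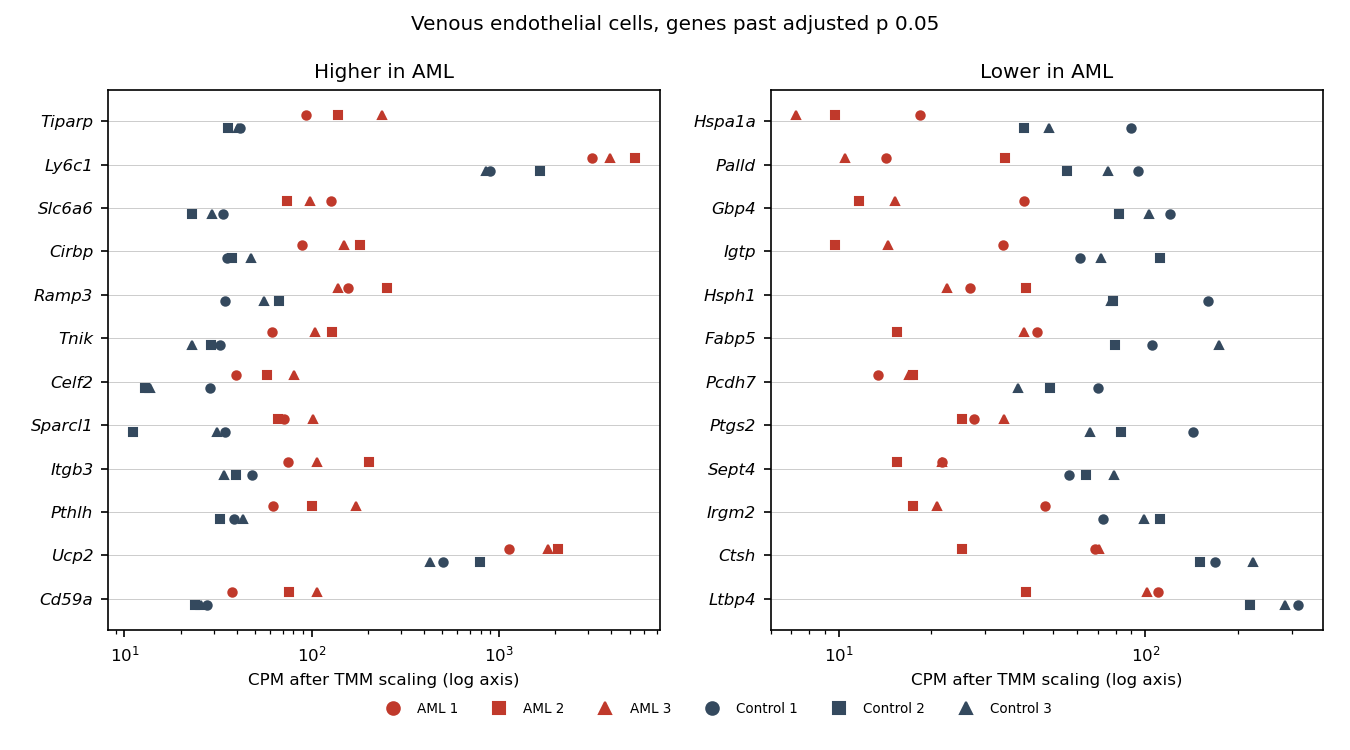
CPM after TMM scaling on a log axis for the 12 rising and 12 falling genes of the naming rule, 1 point per library, with AML in red just above Control in blue. In all 24 genes the 3 AML points lie on one side of the 3 Control points; Ly6c1 lies at 3158 to 5360.2 CPM in AML against 859 to 1659 CPM in Control, and Hspa1a at 7.24 to 18.4 CPM against 40.2 to 89.7 CPM.

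Some of the lists that gave no call in edgeR are given here with their counts, and others without a call are not described. Of 11 venous identity genes tested, 4 lay below and 7 above 0 (median log2 change 0.056), with 1 unadjusted p below 0.05 and 1 call in DESeq2, Car8. Nr2f2 had 369, 407 and 558 CPM in the AML libraries and 455, 336 and 406 CPM in the Controls, overlapping, and Car8, a carbonic anhydrase-related protein, had 182, 107 and 105 CPM against 223, 265 and 307 CPM, apart between the groups but not past the threshold (log2 change -1.004, edgeR adjusted p = 0.0888, DESeq2 adjusted p = 0.0356). In epithelial cells of the same libraries Car8 was at 242, 121 and 108 CPM in AML and 269, 281 and 280 CPM in Control. The part of epithelial RNA in its venous values was not tested. Cpe, with a change of -0.50, did not pass (adjusted p = 0.505). Of 24 hypoxia and glycolysis genes, 20 lay above 0 (median 0.27), with 10 unadjusted p below 0.05 and 2 calls in DESeq2. Hilpda, which coats lipid droplets, missed the threshold (215, 262 and 376 CPM against 121, 105 and 168 CPM; adjusted p = 0.0594). Of 33 nuclear respiratory chain genes, 27 lay above 0 (median 0.23), with none at an unadjusted p below 0.05 and none called by DESeq2. Acute phase and STAT3 genes had a median of 0.47 over 17 tested, with 6 unadjusted p below 0.05 and 0 calls in DESeq2. Lrg1, a secreted glycoprotein of that response, had 2009, 2381 and 2369 CPM in the AML libraries against 400.1, 1453 and 479 CPM in the Controls. The groups did not overlap, but Control 2 stood above the other Controls, and Lrg1 did not pass (log2 change 1.53 ± 0.45 SE, adjusted p = 0.208). Coagulation and Weibel-Palade genes had a median of -0.011 over 21 tested, with 3 unadjusted p below 0.05 and 0 calls in DESeq2, and NF-kB genes a median of 0.45 over 15, also with 3 and 0.

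**Figure D3:**
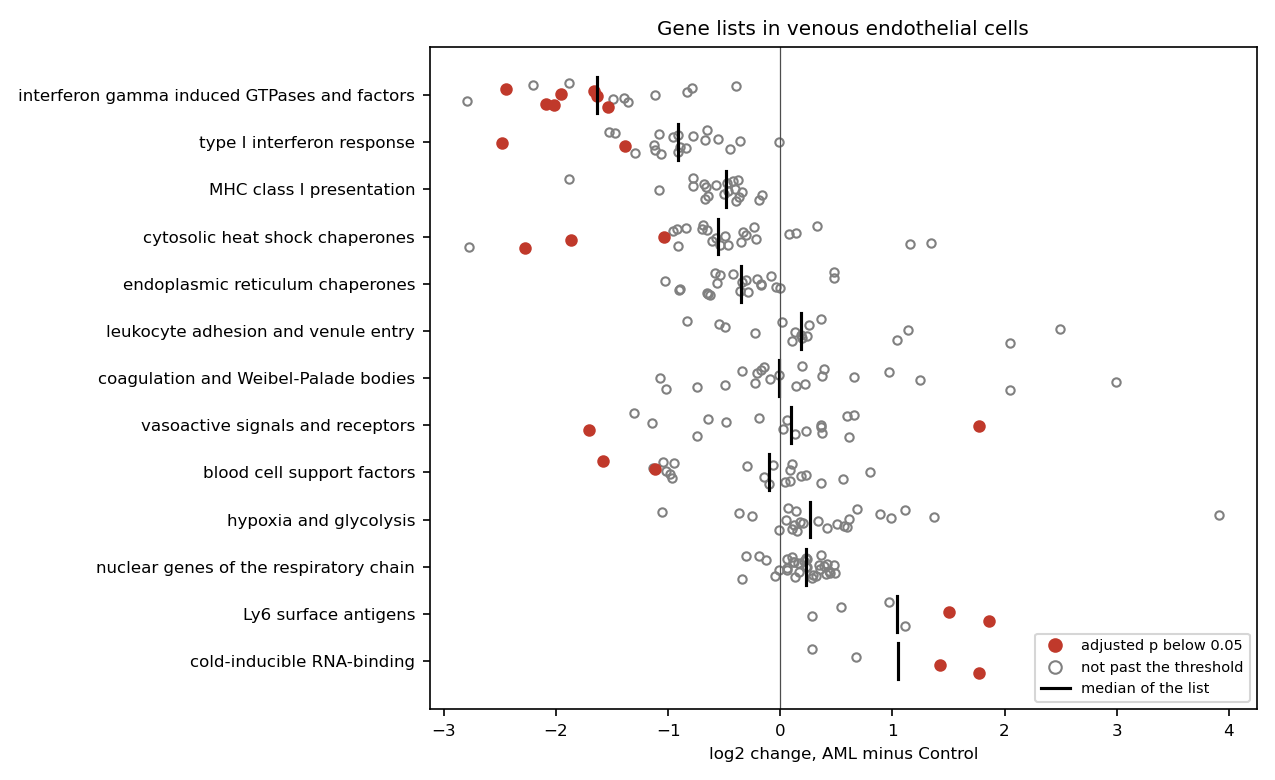
Log2 change, AML minus Control, of each tested gene in 13 lists, with a bar at each list's median, filled points for genes past an edgeR adjusted p of 0.05 and open points for the rest. All 17 interferon-gamma genes lie below 0 around a median of -1.64, while the leukocyte adhesion list (median 0.19) lies on both sides of 0 with no filled point.

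Leukocyte adhesion genes gave no call, and several of them were high in AML 2 alone. Of 16 tested, none passed in edgeR or DESeq2 and 2 had an unadjusted p below 0.05, with 12 changes above 0. Selp, which catches rolling leukocytes, had 41.1, 548 and 66.8 CPM in AML 1, 2 and 3 and 64.1, 62.4 and 23.9 CPM in the Controls (log2 change 2.05 ± 1.27 SE, edgeR adjusted p = 0.619). Icam1, which holds leukocytes firmly, had 266, 814 and 175 CPM against 186, 251 and 162 CPM, and Vcam1 had 213, 649 and 126 CPM against 415, 262 and 227 CPM. AML 2 alone was high for all 3. The chemokine-binding receptor Ackr1 showed the same, at 12.6, 69.7 and 4.02 CPM against 8.87, 0.855 and 2.75 CPM. So did the acute phase gene Lcn2 (0.838, 364 and 5.63 CPM against 8.87, 0.855 and 10.1 CPM). Plat, the tissue plasminogen activator, had 22.6, 360.3 and 65.2 CPM against 14.8, 17.1 and 20.2 CPM. Serpina3n had 15.9, 252 and 33.8 CPM against 0, 5.99 and 0.918 CPM. Both Plat and Serpina3n were highest in AML 2, but every AML library lay above every Control. AML 2 held the fewest venous cells of the AML libraries, and its summed arterial markers were 501 CPM, against 1442 and 1440.3 CPM in AML 1 and 3 and 1311 to 1491 CPM in the Controls. Without AML 2, 67 genes passed.

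In AML 2, 31% of the 100 venous cells had 3 or more Selp UMIs, against 1.27 to 7.41% in the other libraries. At least 1 Selp UMI was found in 48 cells of AML 2. Cells with 3 or more Selp UMIs numbered 5, 31 and 8 in AML 1, 2 and 3 and 6, 12 and 2 in Control 1, 2 and 3. The 31 cells held 262 of the 283 Selp UMIs of AML 2. Among all venous cells 179 had a Selp UMI and 869 had none. Summed over libraries, the Selp cells had Vcam1 at 910 CPM, against 176 CPM in the cells with none, Cd34, a sialomucin, at 383 against 121 CPM, Procr, the protein C receptor, at 139 against 33.1 CPM, and Cpe at 477 against 194 CPM, each higher in 6 of 6 libraries. Icam2 was at 381 against 619 CPM and the chemokine gene Cxcl12 at 57.4 against 198 CPM, each lower in 6 of 6 libraries. Libraries weigh unequally in these sums, and within AML 2 each contrast was smaller, with Vcam1 at 1102 against 369 CPM, Cd34 at 474 against 316 CPM, Procr at 185 against 129 CPM, Cpe at 174 against 91.4 CPM, Icam2 at 438 against 545 CPM and Cxcl12 at 73.8 against 76.2 CPM. Outside AML 2 the cells of 3 or more were also deeper, with medians of 7087.5 to 17642 UMIs per library against 3904 to 7725 in cells with none. In AML 2 the 2 medians were 5340 and 5393 UMIs. All these cells were picked by a measured gene, so the values are a description. Without the 64 cells of 3 or more Selp UMIs, an alternative chosen after seeing the data, 59 genes passed in place of 65, 50 of them shared.

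**Figure D4:**
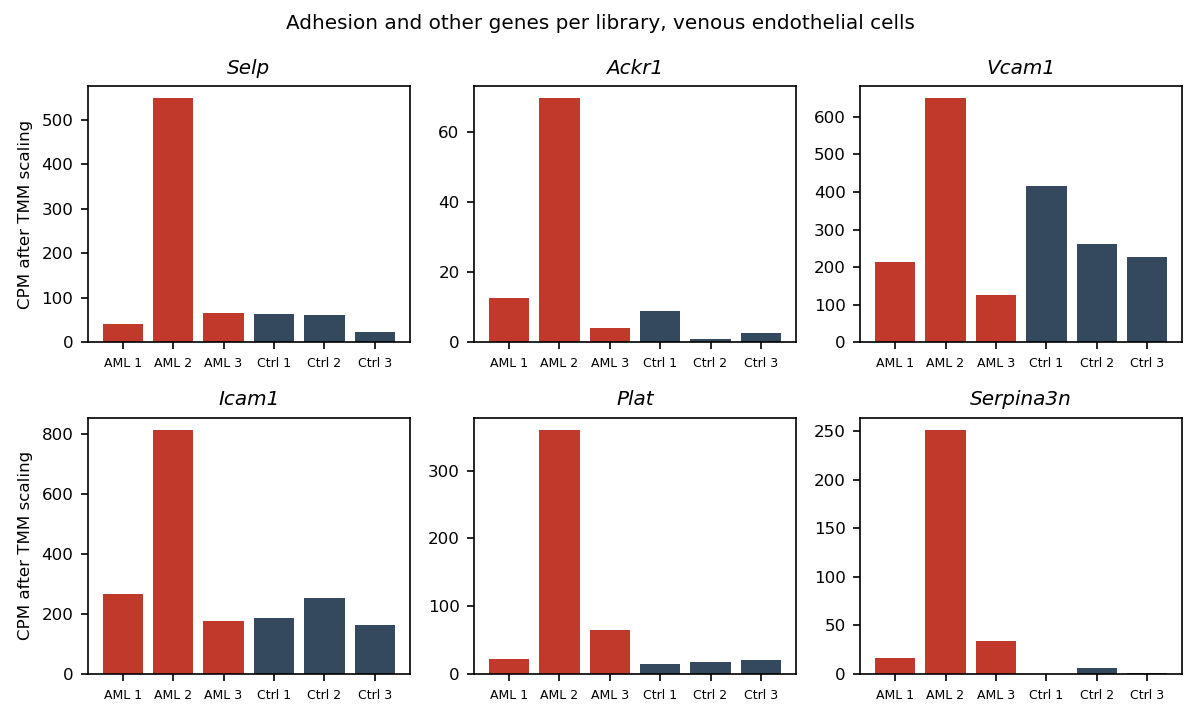
CPM after TMM scaling of 6 genes in venous cells, 1 bar per library on an axis from 0, AML in red left of Control in blue. AML 2 has the tallest bar in each panel, with Selp at 548 CPM against 41.1 and 66.8 CPM in the other AML libraries and 23.9 to 64.1 CPM in the Controls.

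Whether venous cells responded as capillary cells do was tested directly, as the difference between the AML minus Control changes of venous and general capillary cells of the same libraries (edgeR quasi-likelihood test with library as a block, 9863 genes). The difference passed for 55 genes (0.558%), 21 with a higher change in venous cells (0.213%) and 34 with a lower one (0.345%), and 794 had an unadjusted p below 0.05. Among the 34 with a lower venous change, 32 had a capillary change above 0, and 13 of the 34 passed in the capillary cells' own comparison. Among the 21 with a higher venous change, 19 had a capillary change below 0. Choosing genes by this difference favours such signs, so they are a description. Hdc among the 34 and Serpina3n among the 21 had too few capillary UMIs for a capillary change of their own. Only Tcf23 and Tmtc2 of the 55 also passed in venous cells. The count was 86, 80 and 21 without AML 1, 2 and 3, 36, 32 and 25 without Control 1, 2 and 3, and 21 with equal cells per library and class. Set against arterial cells instead, 0 genes passed in edgeR (320 at an unadjusted p below 0.05). DESeq2 was not run for this test.

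Vegfc, already given as a venous gene and named here after its values were seen, had the smallest p. In venous cells it had 444, 274 and 341 CPM in the AML libraries and 367, 381 and 374 CPM in the Controls, and in general capillary cells 75.1, 42.1 and 66.8 CPM against 16.4, 29.9 and 29.1 CPM. The venous groups overlapped and the capillary groups did not. Its log2 changes were -0.06 in venous and 1.27 in capillary cells, and they differed by -1.34 ± 0.17 SE (edgeR adjusted p = 0.000362). In AML libraries as in Controls the venous level stayed above the capillary one. Spns2, which exports the lipid signal sphingosine 1-phosphate, had 80.7, 75.9 and 63.3 CPM against 59.6, 73.9 and 60.1 CPM in venous cells, and 39.9, 40.6 and 32.4 CPM against 91.1, 67.0 and 72.9 CPM in capillary cells (difference 1.20 ± 0.21, adjusted p = 0.0029). Smad6, an inhibitor of BMP signalling, had 146, 159.6 and 114 CPM against 178, 115 and 171 CPM in venous cells, and 185, 160.1 and 147 CPM against 356, 262 and 332 CPM in capillary cells (difference 0.79 ± 0.14, adjusted p = 0.0052). For both genes the AML and Control libraries overlapped in venous cells and were apart in capillary cells. The growth factor Vegfa had changes of -0.25 in venous and -1.17 in capillary cells (difference 0.91 ± 0.18, adjusted p = 0.017).

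For genes that moved in venous cells, no difference passed for most. The interferon-gamma list had 0 of 19 genes past the threshold of the difference and a median difference of -0.056, the type I list 0 of 25 and the heat shock list 0 of 26, with 1, 1 and 4 genes at an unadjusted p below 0.05. Gbp4 had log2 changes of -2.09 in venous and -2.42 in capillary cells (difference 0.28 ± 0.24 SE, edgeR adjusted p = 0.838), Hspa1a -2.28 and -2.62 (0.23 ± 0.41, adjusted p = 0.951), Cirbp 1.78 and 1.96 (-0.15 ± 0.20, adjusted p = 0.922) and Ly6c1 1.87 and 2.16 (-0.35 ± 0.10, adjusted p = 0.128). A p that misses the threshold does not show that the classes responded alike. Ly6a, the surface antigen Sca-1, did not pass in the venous comparison, but its difference between the classes did. It had 5830.2, 7399.5 and 5594.7 CPM in AML against 2231, 4177 and 2389 CPM in Control venous cells. Its changes were 1.11 in venous and 1.57 in capillary cells (difference -0.50 ± 0.09, adjusted p = 0.0049).

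**Figure D5:**
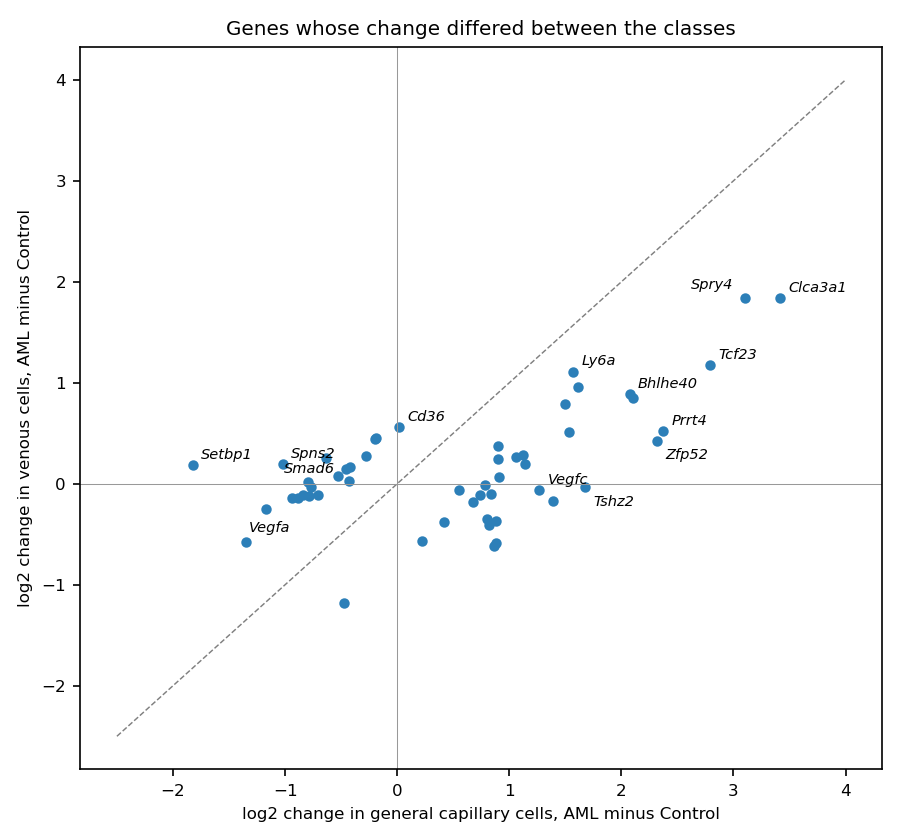
Log2 change, AML minus Control, in venous cells (vertical) and general capillary cells (horizontal) for 53 of the 55 genes whose changes differed at an edgeR adjusted p of 0.05, 1 point per gene, with the line of equal change dashed. Hdc and Serpina3n are not plotted, having too few capillary UMIs for a capillary change of their own. The points spread along the horizontal axis more than the vertical one; Vegfc lies at 1.27 on the horizontal and -0.06 on the vertical axis.

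The share of venous cells did not differ between the groups beyond the spread of libraries. They made up 7.74% (exact 95% binomial interval 6.83 to 8.73%), 3.78% (3.09 to 4.58%) and 7.80% (6.95 to 8.71%) of the endothelial cells of AML 1, 2 and 3, and 7.20% (5.87 to 8.73%), 5.31% (4.54 to 6.17%) and 5.79% (4.94 to 6.74%) of those of Control 1, 2 and 3. AML 2 was the lowest library and the other AML libraries the highest. The means were 6.44% ± 2.30 in AML and 6.10% ± 0.98 in Control libraries (SD, n = 3 each), a difference of 0.34 percentage points (exact two-sided permutation test, p = 0.8, the smallest possible being 0.1). Since the rule reads UMIs and AML cells were shallower, the share was repeated with cells thinned to 2000 UMIs. Cells below that depth were left out, being 11.5, 12.1 and 20.2% of kept cells in AML 1, 2 and 3. In Control 1, 2 and 3 they were 16.2, 10.6 and 10.7%, so libraries lost unequal parts. The thinned cells gave 6.60% in AML against 5.64% in Control libraries (difference 0.97 points, exact permutation p = 0.6). The difference turned on single libraries: it was -0.310, 1.67 and -0.338 points without AML 1, 2 and 3, and 0.891, -0.0553 and 0.186 points without Control 1, 2 and 3. Without AML 2 the exact permutation p was 0.2, the smallest possible with 2 against 3 libraries.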

How the data were processed

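The deposited matrices give, for 32285 features and each barcode, the unnormalised UMI counts that the authors obtained from Cell Ranger with an mm10 reference. Version 6.0.1 is named per the file headers and version 7.0.0 per the submitters' processing notes. The libraries are 3' droplet libraries (10x Chromium, kit v3.1), per the labels' protocols. Coordinates are from GENCODE M21, matched for 32158 features, with the build being mm10. The cells, gene lists and alternatives were chosen with earlier results of these data known.

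Cells were chosen by the stated rule on raw counts, with no cell annotation by the authors used. Counts were summed per library, since cells are not replicates, filtered with filterByExpr, TMM-scaled (factors 0.949 to 1.06) and tested with edgeR 4.0.16 (robust quasi-likelihood, common dispersion 0.0482), with DESeq2 1.42.0 as an alternative (R 4.3.3; Python 3.11.15; scanpy 1.11.5; seed 11). The 16 rule genes stayed out of the calls. The scripts were tested on simulated data. Doublets were kept in the main result; an alternative left out the top Scrublet scores, at 0.8% per 1000 cells, which were 33 venous cells.

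Named genes were up to 12 in each direction with the largest changes past an adjusted p of 0.05, groups that did not overlap and at least 50 CPM in the higher group, list members past the threshold, the 2 members of a list with the smallest p, and up to 6 in each direction for the difference between classes. Isg15, H2-K1, Cd74, Hspa8, Hspb1, Calcrl, Npr1, Nr2f2, Lrg1, Selp, Icam1, Vcam1, Ackr1, Plat, Lcn2, Vegfc and Ly6a were given for their roles or after their values were seen. Some genes are not reported here by name, although they enter the counts. Class levels are CPM before TMM scaling. Same-numbered AML and Control libraries did not deviate together, and the labels give no batch or date.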

Additional observations from a re-analysis of the deposited data

Results flagged for a closer look

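Tests of the difference between the AML minus Control changes of venous and general capillary cells singled out 12 genes, named by a rule of size among the 55 that passed. Values are differences of log2 changes with SE, and adjusted p-values are from edgeR's quasi-likelihood test with library as a block.

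A higher change in venous cells was found for 6 genes. Serpina3n, an acute phase protease inhibitor, differed by 3.09 ± 0.64 (adjusted p = 0.0136): venous cells had 15.96, 253 and 33.7 CPM in AML 1, 2 and 3 and 0, 6.09 and 0.924 CPM in the Controls, and capillary cells 0.395, 29.2 and 3.28 CPM against 0.482, 3.38 and 2.40 CPM. Its AML 2 value stood far above the others in both classes. The low-count filter of this test read both classes together. In capillary cells alone Serpina3n had too few UMIs to be tested. Setbp1, a DNA-binding protein, differed by 2.03 ± 0.34 (adjusted p = 0.0027), with 5.14, 6.77 and 6.14 CPM in AML capillary cells, against 27.0, 13.8 and 24.9 CPM in Control capillary cells, and a venous change of 0.19. Spns2 differed by 1.20, Vegfa by 0.91, Arrb1, a beta-arrestin, by 0.86 (adjusted p = 0.0062), and Smad6 by 0.79. Setbp1 and Spns2 passed with any 1 library left out, and the other 4 did not, nor did Setbp1 and Spns2 with equal cells per class (adjusted p = 0.187 and 0.06309).

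A lower change in venous cells was found for the other 6. Hdc, which makes histamine, differed by -2.21 ± 0.48 (adjusted p = 0.0209), with 21.8, 17.5 and 25.7 CPM in AML and 39.7, 27.0 and 30.5 CPM in Control venous cells, and 4.74, 3.21 and 9.01 CPM in AML and 1.45, 1.82 and 1.80 CPM in Control capillary cells. In capillary cells alone Hdc had too few UMIs to be tested, so its difference rests on few capillary UMIs. Haematopoietic cells of the AML libraries, to which leukaemia cells had been added, had Hdc at 226 CPM, and the part of their RNA in this difference was not tested. Tshz2, a zinc finger protein, differed by -1.76 ± 0.38 (adjusted p = 0.0182): venous cells had 70.6, 60.3 and 98.6 CPM against 71.5, 98.2 and 71.1 CPM, and capillary cells 8.30, 5.70 and 6.55 CPM against 1.45, 2.86 and 1.80 CPM. Prrt4 differed by -1.76 ± 0.43 (adjusted p = 0.0499), from low venous levels of 10.9, 11.7 and 15.2 CPM in AML against 9.93, 6.09 and 11.1 CPM in Control libraries. Tcf23, a transcription factor, rose in both classes, by 1.18 in venous and 2.79 in capillary cells (difference -1.67). Zfp52 differed by -1.64 (adjusted p = 0.0392) and Clca3a1 by -1.57 (adjusted p = 0.0291), with venous changes of 0.43 and 1.84. Each of these 6 missed the threshold with at least 1 library left out.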

How the results depend on the processing

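Of the 65 calls in venous cells, 65 were also made with DESeq2 size factors (66 calls), 63 by DESeq2 itself (115), 65 with no filter on low counts (321), 40 with 95 cells per library (60), 52 with at least 2 Slc6a2 UMIs (57), 59 without the minimum of 3 UMIs (62) and 52 without the top Scrublet cells (52). With the rule applied to cells thinned to 2000 UMIs and shallower cells left out, an alternative chosen after seeing the data, 51 were shared of 96. With the replicate number as a block, which the correlations of same-numbered libraries (-0.054, -0.045 and 0.050) gave no ground for, 97 genes passed and 57 were shared. Leaving out 1 library gave 0 to 313 calls, and all 24 genes of the naming rule passed without AML 1, none without AML 3 or Control 1. The cause was not tested. Without a library an arm had 2 samples. For the difference from general capillary cells, the 55 calls became 137 with no filter, 21 with equal cells per class, 0 against arterial cells (19 to 66 cells per library), and 21 to 86 with 1 library left out; against arterial cells the differences of Serpina3n (-3.00), Smad6 (-0.0465), Hdc (0.95), Tcf23 (0.47) and Zfp52 (0.67) changed sign, none past the threshold. The fibroblast marker Gsn, at -0.98, was at 2.22 with the rule on thinned cells. The difference in share was 0.34 points and ran from -0.338 to 1.67 points with 1 library left out (-0.310 without AML 1, -0.0553 without Control 2). Shallow sums limit genes below about 50 CPM. Of the 65 calls, 17 lay there or were left out of the naming rule as ribosomal, mitochondrial, Gm or Rik genes.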
